A study of Homo sapiens with 6 samples.

Results

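The genes described here are 10 genes of the cohesin complex and its regulators, *CDCA5* (sororin), *SMC1A*, *SMC3*, *RAD21*, *STAG1*, *STAG2*, *PDS5A*, *PDS5B*, *WAPL* and *NIPBL*, found by their symbols among the 60607 genes of the deposited tables. All 10 passed the filter on low counts, as did 17109 genes in total. The siSlu7 group was PLC/PRF/5, an established line of human hepatocellular carcinoma, transfected with siRNAs to deplete SLU7, a splicing factor. The control group was the same line transfected with siGL2, an irrelevant siRNA. RNA was taken 48 h after transfection and sequenced from 3 libraries per group, and the values are estimated read counts per transcript. The labels call the libraries triplicates without saying whether they came from separate cultures, so the spread behind each p-value is that of these libraries and may be technical. Beyond the siRNA, the groups share the cell line and its culture medium.

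Cohesin is a protein ring that holds sister chromatids together from replication to anaphase and also folds interphase chromatin into loops. SMC1A, SMC3 and RAD21 form the ring, and either STAG1 or STAG2 binds it. NIPBL loads the ring onto DNA, WAPL opens it with the help of the PDS5 proteins, and sororin, once bound to PDS5, keeps WAPL from doing so. SLU7 acts in the second step of splicing, where the 3′ splice site is chosen and the exons are joined. In human cells, loss of several splicing factors is known to leave introns in sororin pre-mRNA and to weaken cohesion, which makes the transcripts of *CDCA5* of interest beside its level.

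The 3′ splice sites below are those of the *CDCA5* introns that at least 1 annotated transcript keeps whole. They are shown because the 3′ splice site is chosen in the step in which SLU7 acts. Each is read 5′ to 3′ from the GENCODE 29 sequence of the transcript that keeps the intron (GRCh38, minus strand), with the last 20 intron bases followed by the first 10 exon bases, and capitals mark the AG at the end of the intron.
CDCA5 intron 1, kept in CDCA5-204, window chr11:65083714-65083743: taacttttttctctttccAGggccaagggc
CDCA5 intron 3, kept in CDCA5-203 and CDCA5-209, window chr11:65083390-65083419: attggtattgtcccccgcAGgtcccagctg
CDCA5 intron 5, kept in CDCA5-202, window chr11:65079178-65079207: cctcatttctcttccctcAGaaaacggagc
The introns are 209, 85 and 165 bases long. Of the 18 bases before the AG, 88.9%, 66.7% and 94.4% are C or T. A further annotated 3′ splice site of intron 1, that of CDCA5-207, is not marked.

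The siSlu7 libraries held 5191452 to 6315740 estimated counts and the siGL2 libraries 7736584 to 8693977. Mitochondrial rRNA took 35.3%, 30.1% and 29.9% of the counts in siSlu7 and 22.5%, 16.8% and 24.1% in siGL2, and 7SL RNA took 8.09%, 10.6% and 9.80% in siSlu7 and 16.5%, 23.5% and 15.9% in siGL2. Neither overlapped between the groups. Without 273 structural RNA and mitochondrial genes, *CDCA5* and *PDS5B* were still the 2 genes of the 10 that passed the gene test described below. *SLU7* mRNA was at 9.38, 8.30 and 10.5 CPM (estimated counts scaled to the effective library size) in the siSlu7 libraries and at 20.9, 17.1 and 18.4 CPM in the siGL2 libraries, a log2 fold change of -1.002 (SE 0.18, edgeR adjusted p = 0.0139). The difference did not pass with transcript length offsets (-0.64, edgeR adjusted p = 0.116) or with the replicate number as a block (-1.004, adjusted p = 0.0663). Nor did it pass without siSlu7 replicate 1 or 2 (adjusted p = 0.0556 and 0.0805). On log2(TPM + 1), where TPM is the length-corrected level that the authors deposited, it did not pass either (-0.063, limma adjusted p = 0.868). In TPM *SLU7* stood at 4.12, 4.34 and 4.67 in siSlu7 libraries and at 4.69, 3.46 and 5.96 in siGL2 libraries, and the groups overlapped. The labelled cell line was checked with 12 liver genes. They summed to 18030 to 24530 CPM in siSlu7 and 19400 to 30450 CPM in siGL2 libraries. The largest parts were *APOB* (means of 11820 CPM in siSlu7 and 13430 CPM in siGL2) and *SERPINA1* (6469 and 7641 CPM). *ALB* was at means of 24.5 and 21.4 CPM, under *LYZ* of the leukocyte list (30.1 and 37.7 CPM). *AFP* was near 1 CPM in both groups. The 6 leukocyte and 8 fibroblast and endothelial markers summed to 49.9 to 56.4 and 15.5 to 17.9 CPM in siSlu7 libraries, against 51.3 to 67.9 and 17.7 to 28.8 CPM in siGL2 libraries, and *KDR* was at 0 in every library. Of these, *TTR* (log2 fold change 1.54) and *PTPRC* (2.01) rose and *PDGFRB* (-0.90) fell (edgeR adjusted p = 0.0243, 0.0223 and 0.0402). *PTPRC* had only 12, 11 and 8 counts in siSlu7 and 3, 3 and 4 in siGL2. *TTR* had 20, 21 and 28 counts in siSlu7 and 13, 9 and 10 in siGL2. The part of these marker genes in the results below was not tested. The deviations of siSlu7 replicate 3 and siGL2 replicate 1 from their group means correlated across genes (r = 0.44). That was the highest value of any siSlu7 and siGL2 pair, next to 0.38 for siSlu7 replicate 1 and siGL2 replicate 3. It does not by itself mark outliers, and these 2 libraries were picked after seeing the data. They are called outlying below, and results that rest on them are also given without both.

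In the siSlu7 libraries *CDCA5* and *PDS5B* were called higher, none of the 10 genes was called lower, and 8 did not pass the test. The test was edgeR's quasi-likelihood test over all genes, with a call at a Benjamini-Hochberg adjusted p under 0.05. It called 5.93% of all tested genes higher and 7.93% lower in siSlu7, or 13.9% in either direction, so 2 of 10 is a higher share than the background but rests on 2 genes. The log2 fold change was above 0 in 9 of the 10 genes, against 49.6% of all tested genes, with a median of 0.35, against a median of -0.0068 over all tested genes. Without siSlu7 replicate 3 and siGL2 replicate 1, 7 of the 10 genes passed as higher, and in that fit 14.1% of all tested genes did (29.8% in either direction). Among the 10 genes siGL2 replicate 1 was the highest control for all but *CDCA5*, so leaving it out lowers the control mean of the others. In RNA from whole cultures, more cells in a phase that expresses a gene and more RNA per cell cannot be told apart.

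*CDCA5* encodes sororin, which protects cohesin on replicated chromatids until mitosis. It stood at 22.6, 26.2 and 22.6 CPM in the siSlu7 libraries and at 7.04, 14.3 and 14.95 CPM in the siGL2 libraries. The groups did not overlap, which held for 36.6% of tested genes and for 17.8% with siSlu7 above, and siGL2 replicate 1 lay well under the other controls. Means were 23.8 ± 2.06 CPM in siSlu7 and 12.1 ± 4.40 CPM in siGL2 (SD, n = 3 each), a log2 fold change of 0.97 (SE 0.27, edgeR adjusted p = 0.0457). The gene is a low one: 147, 142 and 121 counts stood behind the siSlu7 values, against 56, 107 and 117 behind the siGL2 values. The call depended on which libraries were used. Leaving out any siSlu7 library, siGL2 replicate 2 or siGL2 replicate 3 brought the adjusted p to between 0.0791 and 0.157, at log2 fold changes of 0.90 to 1.14. Without siGL2 replicate 1 the fold change was smaller and the gene still passed (0.70, adjusted p = 0.0173), and it also passed without both outlying libraries (0.73, adjusted p = 0.00922).

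*PDS5B* encodes a HEAT-repeat protein that sits on the ring and binds sororin and WAPL in turn. It was at 51.8, 49.8 and 52.9 CPM in the siSlu7 libraries, against 34.9, 24.8 and 32.2 CPM in the siGL2 libraries. The siSlu7 values lay close together and above every control. Means of 51.5 ± 1.58 and 30.6 ± 5.25 CPM in siSlu7 and siGL2 (SD, n = 3 each) gave a log2 fold change of 0.75 (SE 0.17, edgeR adjusted p = 0.0228). Leaving out any library but siGL2 replicate 1 brought the adjusted p to between 0.0631 and 0.0988, at log2 fold changes of 0.61 to 0.77. The call was also lost with offsets for both GC content and length (0.53, adjusted p = 0.058) and with transcript length offsets (0.50, adjusted p = 0.302). *CDCA5* passed under both (1.19, adjusted p = 0.0222, and 1.17, adjusted p = 0.0386).

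*PDS5A*, the paralog with the same partners, did not pass. Its CPM values of 109, 106 and 100.5 in siSlu7 lay above the 89.2, 71.3 and 82.9 in siGL2, a log2 fold change of 0.37 (SE 0.15, edgeR adjusted p = 0.121). *WAPL*, which releases cohesin from DNA, was at 87.7, 76.5 and 72.7 CPM in siSlu7 libraries and 81.4, 66.7 and 68.6 CPM in siGL2 libraries, and the groups overlapped (0.13, SE 0.15, adjusted p = 0.599). *NIPBL*, the loader, stood at 94.0, 88.8 and 97.7 CPM in siSlu7 and 88.1, 62.0 and 76.0 CPM in siGL2, without overlap but with a narrow gap (0.31, SE 0.16, adjusted p = 0.227). Its direction turned with offsets for transcript length (-0.18). Without siSlu7 replicate 3 and siGL2 replicate 1, *PDS5A* (0.48, adjusted p = 0.0223) and *NIPBL* (0.41, adjusted p = 0.0493) passed, and *WAPL* (0.28, adjusted p = 0.125) did not.

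**Figure D1:**
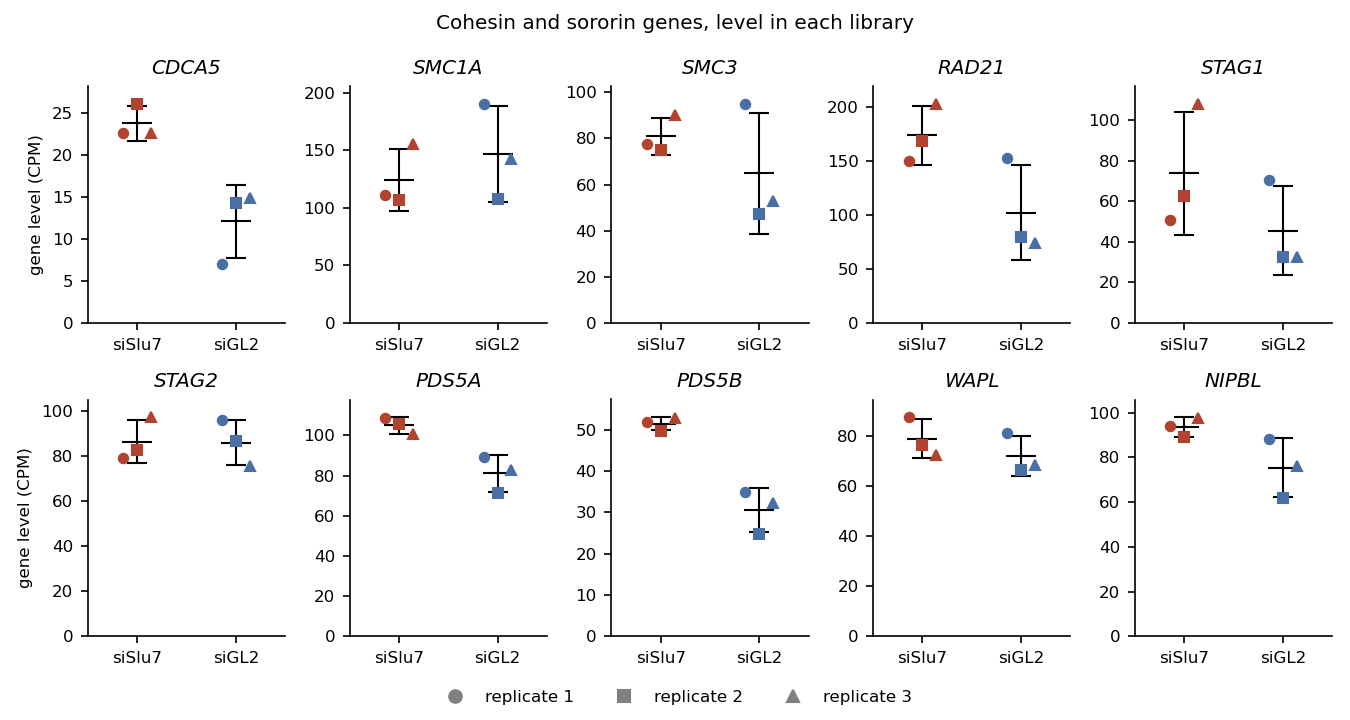
Gene level in CPM (y axis, from 0) for each of the 10 genes, with siSlu7 libraries at the left and siGL2 libraries at the right of each panel; symbols are replicates, the horizontal mark is the mean and the bar is the SD (n = 3). The *CDCA5*, *PDS5A*, *PDS5B* and *NIPBL* groups did not overlap, and siGL2 replicate 1 was the highest control for every gene but *CDCA5*, where it was the lowest.

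Among the ring subunits, *RAD21*, the kleisin that separase cuts at anaphase, had the largest difference that did not pass. It was at 150, 169 and 203.5 CPM in the siSlu7 libraries and at 153, 79.4 and 74.4 CPM in the siGL2 libraries. siGL2 replicate 1 reached the siSlu7 range while the other controls lay far below it. The log2 fold change was 0.77 (SE 0.28, edgeR adjusted p = 0.10), and without siSlu7 replicate 3 and siGL2 replicate 1 it was 1.05 (adjusted p = 0.000646). With all 6 libraries DESeq2 called the gene (adjusted p = 0.0394), as did edgeR without the filter on low counts (0.0228) and limma on log2(TPM + 1) (0.0487). It was at 0.37 (adjusted p = 0.356) with transcript length offsets and at 0.58 (adjusted p = 0.183) with offsets for both GC content and length.

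*STAG1*, a HEAT-repeat subunit, showed the same layout, with 50.6, 62.5 and 108 CPM in siSlu7 and 70.7, 32.7 and 32.7 CPM in siGL2. The highest siSlu7 value and the highest siGL2 value were those of siSlu7 replicate 3 and siGL2 replicate 1. With all libraries the log2 fold change was 0.70 (SE 0.36, edgeR adjusted p = 0.222), and without those libraries it was 0.79 (adjusted p = 0.00323). *SMC3*, the subunit whose acetylation locks the ring, was at 77.7, 75.0 and 90.1 CPM in siSlu7 and 95.1, 47.0 and 52.7 CPM in siGL2 (0.32, SE 0.26, adjusted p = 0.434, and 0.62, adjusted p = 0.00555, without the same libraries).

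*SMC1A* and *STAG2* did not follow. *SMC1A*, the ATPase partner of SMC3, was the only gene of the 10 with a log2 fold change under 0 with all 6 libraries (-0.24, SE 0.24, edgeR adjusted p = 0.531), with 111, 107 and 155 CPM in siSlu7 libraries and 191, 108 and 142 CPM in siGL2 libraries. *STAG2*, the other HEAT-repeat subunit and the one often mutated in cancer, was at 79.4, 82.8 and 97.5 CPM in siSlu7 and 96.1, 86.7 and 75.8 CPM in siGL2 (0.0058, SE 0.16, adjusted p = 0.985). Neither passed once both outlying libraries were left out (-0.19, adjusted p = 0.375, for *SMC1A*, and 2.7e-05, adjusted p = 1, for *STAG2*). Whether their fold changes differ from those of the other subunits was not tested.

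**Figure D2:**
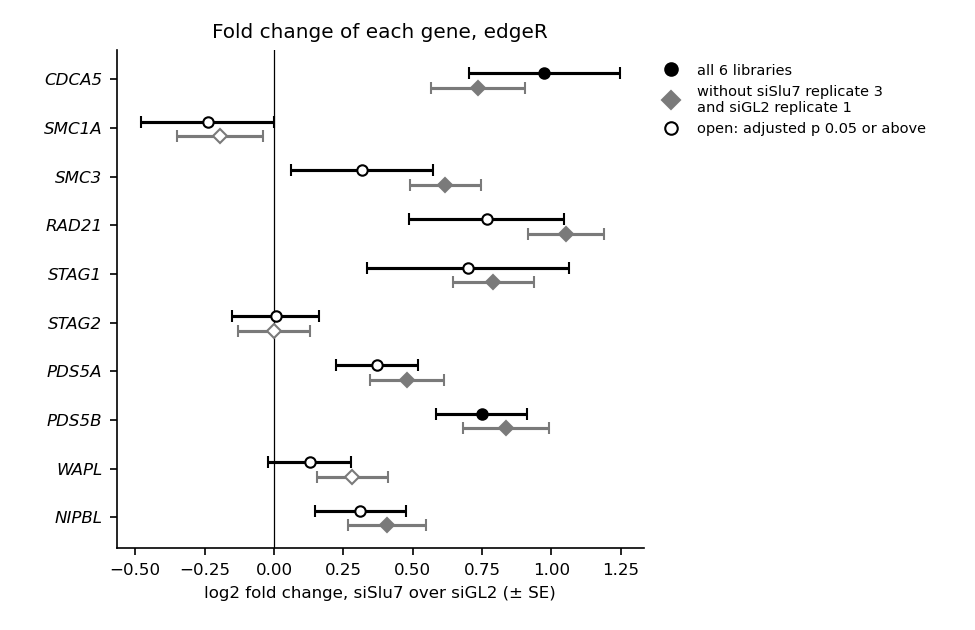
Log2 fold change, siSlu7 over siGL2, with its SE (x axis) for the 10 genes, from edgeR with all 6 libraries (circles) and without siSlu7 replicate 3 and siGL2 replicate 1 (diamonds); filled symbols passed at an adjusted p under 0.05. With all libraries *CDCA5* and *PDS5B* passed, and without those libraries all but *SMC1A*, *STAG2* and *WAPL* did.

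siGL2 replicate 1 was the highest control for 9 of the 10 genes and the lowest for *CDCA5*. The cell cycle list of 25 genes summed to 2635, 2790 and 3329 CPM in siSlu7 and 2987, 1863 and 2220 CPM in siGL2, highest in siSlu7 replicate 3 and siGL2 replicate 1. The log2 fold change was above 0 in 21 of the 25 genes, against 49.6% of all tested genes. Their layout over the libraries was not the same throughout. *MKI67*, a proliferation marker and the largest part of the sum, was at 624, 643.5 and 1035 CPM in siSlu7 and 893, 344 and 520 CPM in siGL2. *TOP2A*, a topoisomerase of dividing cells, was at 245, 209 and 182 CPM in siSlu7 and 204, 164 and 195 CPM in siGL2. Both were highest among the controls in siGL2 replicate 1, but in siSlu7 replicate 3 *MKI67* was highest and *TOP2A* lowest of the siSlu7 libraries. The part of this list in the results for the cohesin genes was not tested. Of those 25 genes *CDC6*, which licenses replication origins, rose (1.02, SE 0.21, edgeR adjusted p = 0.0195), none fell, and the median was 0.32, so the share called was under the 5.93% of all tested genes. The *CDC6* call was lost without any library but siGL2 replicate 1 (adjusted p = 0.052 to 0.0926). Leaving out both outlying libraries, 10 of the 25 passed as higher and 1 as lower, where 14.1% of all tested genes passed as higher.

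On the TPM scale, which corrects for transcript length and so allows levels to be compared between genes, *RAD21* (43.9 ± 6.65), *SMC1A* (39.98 ± 8.19) and *STAG2* (35.7 ± 7.003) were the highest in siSlu7, and *SMC1A* (35.9 ± 15.1), *STAG2* (24.97 ± 3.97) and *RAD21* (23.3 ± 7.08) in siGL2 (mean ± SD, n = 3 each). The ranges of these genes overlapped within each group. In siSlu7 libraries *STAG1*, *PDS5A*, *NIPBL* and *PDS5B* followed at means of 25.6, 21.5, 20.3 and 19.2 TPM, and *CDCA5*, *SMC3* and *WAPL* were lowest at 11.8, 11.3 and 9.08 TPM. The only neighbours in this order whose values did not overlap were *PDS5B* and *CDCA5* in siSlu7. In siGL2 libraries *CDCA5* was last at 3.57 ± 1.17 TPM, behind *SMC3* at 5.70 ± 2.63 and *WAPL* at 5.95 ± 0.57 TPM, and no neighbours were separated. The difference of *CDCA5* was larger on this scale, with 10.3, 12.7 and 12.4 TPM in siSlu7 and 2.76, 3.04 and 4.92 TPM in siGL2. On log2(TPM + 1) its difference was 1.51 (limma adjusted p = 0.013), where the median of all tested genes was 0.35.

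*CDCA5* has 10 transcripts in the files, and the full-length coding transcript CDCA5-201 carried most of the reads, with 112, 100.3 and 76.6 estimated counts in siSlu7 and 30.8, 94.7 and 87.1 in siGL2. Set against library size these are 17.1, 18.3 and 14.2 CPM in siSlu7 and 4.13, 13.8 and 11.9 CPM in siGL2, above the controls in every siSlu7 library, although the transcript alone did not pass (log2 fold change 0.73, SE 0.47, edgeR adjusted p = 0.50). CDCA5-202, a shorter coding transcript that keeps intron 5, had 11.7, 8.2 and 10.7 counts in siSlu7 and 3.3, 2.1 and 5.4 in siGL2, also without overlap and also not past the test (1.91, SE 0.62, adjusted p = 0.223). The other transcripts held few reads and scattered. CDCA5-203, which keeps intron 3, had 14.9, 11.2 and 4.1 counts in siSlu7 and 1.4, 6.6 and 3.5 in siGL2. CDCA5-204, which keeps intron 1, had 8.5, 3.7 and 0 counts in siSlu7 and 4.9, 3.5 and 14.3 in siGL2. Among transcripts annotated as targets of nonsense-mediated decay, CDCA5-207 had 0, 12.7 and 25.6 counts in siSlu7 and 0, 0 and 2.5 in siGL2. CDCA5-205 had 0, 5.9 and 0 in siSlu7 and 15.5, 0 and 4.3 in siGL2. In CDCA5-207 the exon after intron 1 starts 448 bases from the upstream end of the gene, against 441 in CDCA5-201. It thus ends intron 1 at another 3′ splice site than the one marked above, and the use of that site was not tested.

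The 4 transcripts that keep an intron of CDCA5-201 whole, whose 3′ splice sites are printed above, took 23.9%, 16.3% and 15.6% of the *CDCA5* counts in siSlu7 and 17.2%, 11.5% and 19.8% in siGL2. The 95% Wilson intervals ran from 10.3% to 31.3% over the siSlu7 libraries and from 6.53% to 29.8% over the siGL2 libraries, and they cover counting error only. The groups overlapped, although siSlu7 replicate 1 was above every control and siGL2 replicate 2 below every siSlu7 library. Only CDCA5-201 and CDCA5-202 had enough reads for the test of transcript usage, and no shift between them was detectable at this depth (edgeR diffSpliceDGE, Simes method, adjusted p = 1). The test of transcript classes, in which transcripts are summed by annotation, also gave an adjusted p of 1. It counts CDCA5-202, which keeps an intron whole, as coding together with CDCA5-201, so it cannot show a shift between them. The use of the other *CDCA5* transcripts was not tested singly.

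**Figure D3:**
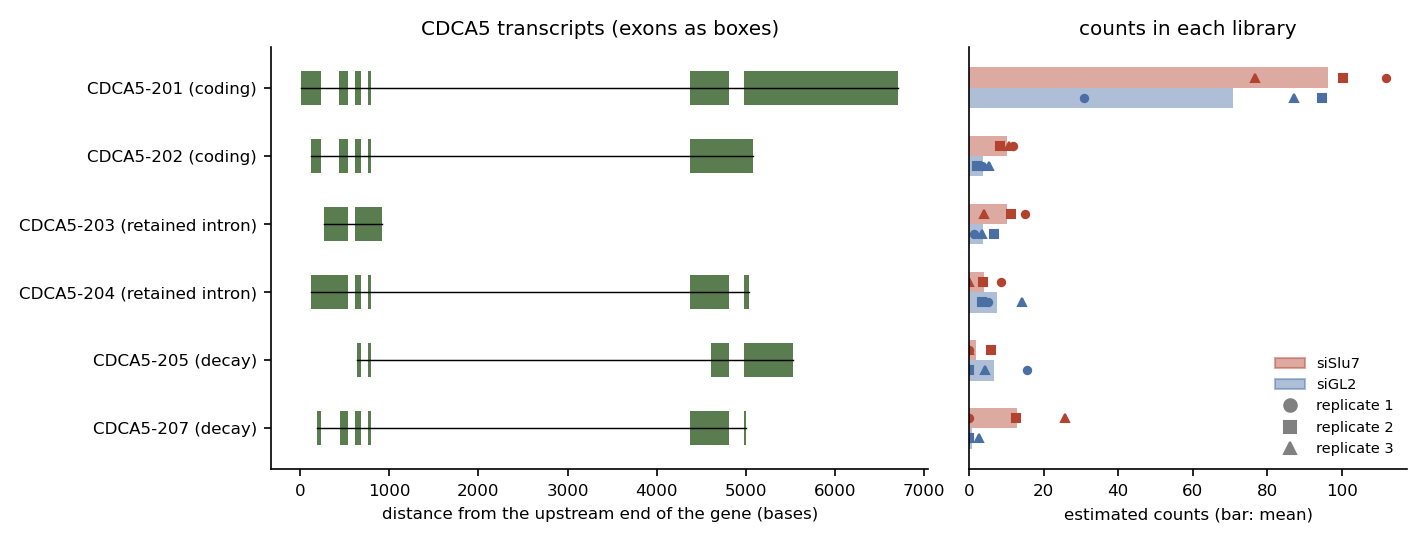
Left, exons (boxes) of 6 *CDCA5* transcripts by distance in bases from the upstream end of the gene; right, their estimated counts, with a bar for the mean of each group (siSlu7 above, siGL2 below) and symbols for replicates. CDCA5-201 held most counts in every library, and the transcripts that keep an intron held at most 14.9 counts each.

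No transcript of the 10 genes passed the transcript test, and neither did any of the 43128 transcripts tested (edgeR, 0 calls, with 6956 at an unadjusted p under 0.05, and 0 calls by limma with voom). Of the 90 transcripts of the 10 genes, 83 had reads and 43 were tested, 7 of them at an unadjusted p under 0.05. Over all transcripts tested, 16.1% were under that level, so the share here was close to the background. The main transcripts, none of them past the test, included RAD21-201 (148 ± 41.2 CPM in siSlu7 and 83.2 ± 44.9 CPM in siGL2, SD, n = 3 each) and PDS5A-201 (85.7 ± 1.06 and 70.7 ± 7.79 CPM in siSlu7 and siGL2). NIPBL-202 was at 55.4 ± 11.1 CPM in siSlu7 and 42.8 ± 10.8 CPM in siGL2, and SMC3-201 at 77.9 ± 8.74 CPM in siSlu7 and 69.1 ± 27.4 CPM in siGL2. WAPL-201 (76.2 ± 6.82 CPM in siSlu7 and 73.7 ± 11.2 CPM in siGL2) and STAG2-202 (44.1 ± 8.44 CPM in siSlu7 and 44.9 ± 8.83 CPM in siGL2) lay close in both groups.

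*SMC1A* was the gene of the 10 whose transcript usage passed the test, although its level did not. Usage was tested in 8 of the 10 genes, and 2.90% of the 8869 genes tested passed. The adjusted p of *SMC1A* was 1.49e-05 (edgeR diffSpliceDGE, Simes method), rank 8 of all genes tested. The difference lay in a pair of long coding transcripts, SMC1A-201 of 9710 bases and SMC1A-208 of 9826 bases. SMC1A-208 had 55.5, 158 and 158 estimated counts in the siSlu7 libraries and under 1 count in every siGL2 library. Against an assumed floor of 3 counts in each siGL2 library, its mean CPM was 53.3-fold higher in siSlu7. That figure depends on the floor and on how reads were split between the pair, so it is not a lower bound. SMC1A-208 alone did not pass the transcript test (edgeR adjusted p = 0.0994). SMC1A-201 had 159, 14.9 and 64.0 counts in siSlu7 and 347, 286 and 312 in siGL2, so that every siSlu7 library was below every control.

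Added together, the pair had 214, 173 and 222 counts in siSlu7, against 347, 286 and 312 in siGL2. Set against library size this is 35.1 ± 5.19 CPM in siSlu7 and 43.6 ± 2.56 CPM in siGL2 (SD, n = 3 each). The pair took 29.7%, 29.8% and 26.7% of the *SMC1A* counts in siSlu7 and 22.9%, 35.6% and 28.0% in siGL2. With both counted as 1 transcript, no usage difference remained in *SMC1A* (adjusted p = 1), so the call was the split of reads inside this pair. Limma's diffSplice did not call *SMC1A* (adjusted p = 0.138). edgeR called it without each library in turn, with adjusted p values of 1.85e-05 to 0.00132. *NIPBL* was called beside it without siSlu7 replicate 3 (2.28% of all genes tested passed), *STAG2* without siGL2 replicate 1 (8.70%), and both when neither of these libraries was used (9.36%). The sequence of SMC1A-208 was not analysed here, and how many reads told the pair apart is not given in the files. The other main transcripts, SMC1A-206 (coding, 301, 239 and 406 counts in siSlu7 and 719, 293 and 441 in siGL2) and SMC1A-203 (annotated for decay, 164, 114 and 171.5 counts in siSlu7 and 396, 170 and 256 in siGL2), were not called in usage (adjusted p = 1 each).

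*PDS5B* reads were spread over many transcripts, and those annotated as retained-intron or decay transcripts took 65.5% ± 6.97 of its counts in siSlu7 and 57.2% ± 9.96 in siGL2 (SD, n = 3 each), the highest share among the 10 genes. The decay transcript PDS5B-203 had 145.5, 72.2 and 45.1 counts in siSlu7 and 42.1, 40.1 and 62.6 in siGL2, which is 14.6 ± 7.08 and 6.68 ± 1.63 CPM. The full-length coding transcript PDS5B-201 had 53.4, 60.5 and 89.2 counts in siSlu7 and 58.5, 70.7 and 78.2 in siGL2, which is 11.9 ± 4.23 and 9.61 ± 1.55 CPM. The retained-intron transcript PDS5B-209 was at 9.64 ± 1.98 CPM in siSlu7 and 4.55 ± 2.11 CPM in siGL2. None of these passed singly (edgeR adjusted p = 0.287, 0.733 and 0.326), and neither usage test called the gene (adjusted p = 1 in each).

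PDS5B-203 differs from PDS5B-201 near its 3′ end, where exon 33 runs on from 108 to 225 bases and exon 34, of 136 bases, is skipped (GRCh38, plus strand, intron chr13:32770879-32775016). Its junction is printed because reads across it tell this decay transcript from the full-length one, with exon 33 in lower case and the following exon in capitals, 15 bases each.
PDS5B-203 junction: gccccattacactagGTACGGCGGCGAAGT

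The decay transcripts of *STAG1* took 29.4%, 24.0% and 16.6% of its counts in siSlu7 and 3.33%, 2.07% and 24.5% in siGL2. siGL2 replicate 3 lay inside the siSlu7 range, and the class test did not pass (relative log2 change 0.97, adjusted p = 0.571). The main decay transcript STAG1-208 had 60.7, 61.8 and 72.2 counts in siSlu7 and 8.5, 0 and 40.8 in siGL2. The groups did not overlap, at a log2 fold change of 2.31 (SE 1.20, edgeR adjusted p = 0.409). Class usage was tested in 7 of the 10 genes and passed in none, against 2.41% of the 6838 genes tested (165 called by the Simes method and 596 by the gene-level test of the same tool).

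**Figure D4:**
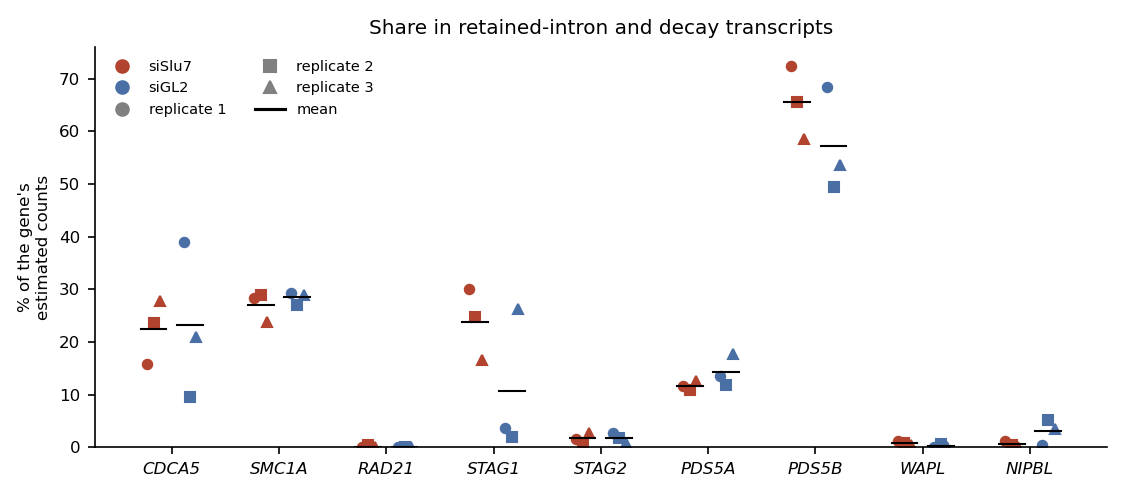
Share of each gene's estimated counts (percent, y axis from 0) in retained-intron and decay transcripts, siSlu7 left of siGL2 for each gene; symbols are replicates and lines are means. *SMC3* has no such transcript in the files. *PDS5B* had the highest share in both groups, and the *STAG1* groups overlapped through siGL2 replicate 3.

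Of 25 other genes of the cohesion pathway 23 were tested, and 3 rose and none fell, with a median log2 fold change of 0.36, against 5.93% of all tested genes higher and a median of -0.0068. All its tested genes are counted whichever way they moved, but the list was chosen with earlier results of these data known. *CTCF*, the factor at which loop-extruding cohesin stops, was at 76.1, 74.3 and 80.9 CPM in siSlu7 and 51.6, 38.7 and 39.1 CPM in siGL2 (log2 fold change 0.84, SE 0.16, edgeR adjusted p = 0.0157). *SGO2*, a shugoshin that guards centromeric cohesin, was at 44.3, 41.5 and 37.4 CPM in siSlu7 and 26.8, 16.2 and 23.6 CPM in siGL2 (0.89, SE 0.20, adjusted p = 0.0252). *DSCC1*, part of the clamp loader that aids cohesion at replication forks, was at 10.2, 11.8 and 10.5 CPM in siSlu7 and 6.79, 4.02 and 4.35 CPM in siGL2 (1.09, SE 0.25, adjusted p = 0.0258). All 3 were above every control in each siSlu7 library, which held for 17.8% of all tested genes. They were named because they passed the test, so this is no further support. Leaving out siSlu7 replicate 1 or 2, or siGL2 replicate 2 or 3, ended all 3 calls (adjusted p = 0.0605 to 0.115), and leaving out siSlu7 replicate 3 ended those of *SGO2* (0.0538) and *DSCC1* (0.0621). Offsets for transcript length ended those of *CTCF* (0.62, adjusted p = 0.101) and *DSCC1* (0.9987, adjusted p = 0.121). Leaving out both outlying libraries, 7 of the 23 passed as higher and none as lower, against 14.1% higher over all genes.

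Condensin and SMC5/6, the other SMC complexes, gave 2 of 14 genes higher and none lower, with a median of 0.26, beside the same 5.93% higher over all genes. *SMC4*, a condensin ATPase, was at 98.0, 84.8 and 79.0 CPM in siSlu7 and 62.3, 58.0 and 59.9 CPM in siGL2 (0.54, SE 0.14, edgeR adjusted p = 0.0396). *NCAPH*, the condensin kleisin, was at 109, 116 and 131 CPM in siSlu7 and 90.3, 66.7 and 75.8 CPM in siGL2 (0.61, SE 0.17, adjusted p = 0.0424). Leaving out both outlying libraries, 6 of the 14 passed as higher and 1 as lower, where 14.1% of all genes were higher. The calls of *SMC4* and *NCAPH* were lost without any library but siGL2 replicate 1 (adjusted p = 0.0617 to 0.156), without the filter on low counts (0.0956 for *SMC4* and 0.0537 for *NCAPH*), with transcript length offsets (0.198 and 0.161 for these genes) and with offsets for both GC content and length, where *SMC4* was at 0.27 (adjusted p = 0.195) and *NCAPH* at 0.53 (adjusted p = 0.0547).

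Across the 6 libraries the coding genes whose log2 CPM was most like that of *CDCA5* were *ZNF142*, *ZFAND5*, *FOXK1*, *TRMT1* and *CRY2* (Pearson r of 0.994, 0.992, 0.99, 0.988 and 0.988, among 9927 coding genes with a mean of at least 5 CPM). The 6 points share the group difference and the library depths, so the correlations are descriptions. Of the other 9 genes *PDS5B* was closest to *CDCA5* (r = 0.63) and *SMC1A* farthest from it (r = -0.68).

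Whether reads of overlapping genes on the opposite strand were told apart is not known, since no strand setting is given. In GENCODE 29 *CDCA5* (chr11:65066300-65084164, minus strand, GRCh38) and *SMC3* overlap no other gene, whereas *SMC1A* overlaps *RIBC1*, *RAD21* overlaps *UTP23*, *STAG1* overlaps *PCCB* and *STAG2* overlaps *TENM1* on the opposite strand, counting coding genes alone.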

How the data were processed

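RNA was harvested in TRIzol and polyA RNA was made into libraries with the ScriptSeq kit, per the labels' protocols. The submitters' processing notes name FastQC 0.11.8, Trimmomatic 0.38, kallisto 0.46.1, sleuth 0.30.0 and GRCh38, with no role or order. Per the file headers, the authors deposited an estimated count, not normalized, and a TPM value for each of 234485 transcripts. The strand setting is not given in the sources used here.

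The 159 chromosome Y records of the pseudoautosomal regions were added to their X copies, and estimated counts were summed to genes or transcript classes and rounded. edgeR 4.0.16 (R 4.3.3) was used with TMM, filterByExpr (count 10, total 15), the quasi-likelihood test and Benjamini-Hochberg adjustment over all features at 0.05. SE is the log2 fold change divided by the root of F. Usage was tested by diffSpliceDGE (Simes) where at least 2 transcripts or classes remained. DESeq2 1.42.0 and limma 3.58.1 served as alternatives. The edgeR tests of genes, transcripts, usage and classes were also run on simulated counts with known changes and a fixed dispersion. DESeq2, limma and the alternative fits were not. The members, lists and tests were chosen with earlier results of these data known.

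Named are SLU7, the 10 genes, list genes past the test (at most 8 a list), the main transcript of a gene, CDCA5 transcripts averaging at least 1 count and the 5 genes most like CDCA5. The named cell type marker genes were singled out after their values were seen. So were MKI67, TOP2A, SMC1A-201, SMC1A-203, SMC1A-208, PDS5B-203, PDS5B-209, STAG1-208 and the transcripts among the other observations. Also added after seeing the data were fits without siSlu7 replicate 3 and siGL2 replicate 1, with offsets from a spline of GC content and length (97.6% of tested genes had a value), without 273 structural RNA and mitochondrial genes, with voom on transcripts, and with SMC1A-201 and SMC1A-208 merged. Coordinates and sequences are from GENCODE 29 (GRCh38).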

Additional observations from a re-analysis of the deposited data

How the results depend on the processing

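The 2 calls among the 10 genes kept their direction under every alternative run, but their place past the threshold depended on which library was left out, on the block and, for *PDS5B*, on the offsets and the TPM scale. The count of the 10 genes past the test was 0 with the replicate number as a block, 0 to 5 when a library was left out (5 without siGL2 replicate 1), 1 with transcript length offsets, 1 with offsets for both GC content and length, and 7 without siSlu7 replicate 3 and siGL2 replicate 1. Over all genes it was 2371, against 0 with the block (edgeR, 4209 genes at an unadjusted p under 0.05), 0 to 4457 with a library left out (0 without siSlu7 replicate 2, with 4244 at an unadjusted p under 0.05), 966 with transcript length offsets and 5248 without both libraries. DESeq2, run with all libraries and no block, called 2532. On log2(TPM + 1) limma called 2985 genes higher and 150 lower, against 1015 and 1356 in edgeR, around the median shift of 0.35. With transcript length offsets 442 were higher and 524 lower, and with GC content and length offsets 908 and 904. Whether the numbers pair the libraries is not given in the labels. The deviations of same-numbered libraries correlated at -0.41, 0.11 and -0.37, and siSlu7 replicate 1 correlated best with siGL2 replicate 3 (0.38). These correlations cannot decide it, because deviations from a group mean constrain one another within the group.

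Directions turned in 3 of the 10 genes, none of them called. *STAG2* was at -0.018 without the filter, -0.041 with transcript length offsets, -0.22 with offsets for both GC content and length and -0.096 to 0.090 with a library left out. *SMC1A* was at 0.23 on log2(TPM + 1), and *NIPBL* at -0.18 with transcript length offsets. With a library left out, STAG2-202 ranged from -0.15 to 0.12, WAPL-201 from -0.054 to 0.15, PDS5B-201 from -0.015 to 0.50, SMC1A-206 from -0.57 to 0.072 and SMC3-201 from -0.020 to 0.52. Without both libraries STAG2-202 was at 0.028 and PDS5B-201 at -0.14. The causes were not tested.

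Without the filter 94 transcripts passed, 1 of them of these genes (SMC1A-208). Transcript usage passed in 442 genes by the gene-level test, 87 with the block, 156 to 808 with a library left out and 865 without both libraries, against 257. Of the 10 genes it passed in 0 with limma diffSplice, 0 with SMC1A-201 and SMC1A-208 added together, 1 to 2 with a library left out (*NIPBL* beside *SMC1A* without siSlu7 replicate 3, *STAG2* without siGL2 replicate 1) and 3 without both libraries, where 9.36% of all genes passed. Class usage passed in 596 genes by the gene-level test, 12 with the block, 31 to 446 with a library left out and 483 without both, against 165, and in none of the 10 genes in any of these. Of the 90 transcripts, 43 had enough counts for the transcript test.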

Other observations

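Further transcripts of these genes were listed at or near 0 in every library of a group, without a call. NIPBL-209, a coding transcript of 9228 bases, had 20.2, 59.4 and 0 counts in siSlu7 and 0 in every siGL2 library. STAG2-203, a coding transcript of 6179 bases, had 0 counts in every siSlu7 library and 0, 33.1 and 18.3 in siGL2. Neither passed the filter on low counts with all 6 libraries. Without siSlu7 replicate 3 and siGL2 replicate 1 both were tested and neither was called (NIPBL-209 8.50, edgeR adjusted p = 0.127, and STAG2-203 -7.58, adjusted p = 0.122). NIPBL-209 was at 0 in siSlu7 replicate 3, without which *NIPBL* was called in usage. STAG2-203 was at 0 in siGL2 replicate 1, without which *STAG2* was. The part of these transcripts in those calls was not examined.

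STAG1-206, a short coding transcript of 1304 bases, varied widely inside the groups, with 58.3, 155 and 367 counts in siSlu7 and 321, 50.3 and 26.9 in siGL2. Its highest values were in siSlu7 replicate 3 and siGL2 replicate 1, the libraries called outlying, and the whole gene was highest there too. Without this transcript's reads no test of *STAG1* was run. RAD21-204, a short coding transcript of 896 bases, was at 5.47, 6.49 and 2.87 CPM in siSlu7 and 18.6, 14.9 and 6.63 CPM in siGL2. The groups did not overlap, siSlu7 was below siGL2, opposite to the whole gene, and the transcript did not pass (edgeR adjusted p = 0.259).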
